A study of Mus musculus with 9 samples.

Results

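The glucocorticoid receptor, its close relative the mineralocorticoid receptor, the enzyme that supplies them with hormone and 6 of their target genes were followed in mouse lung after exposure to Aspergillus fumigatus. The 9 genes were chosen by name, as the rows whose symbol was Nr3c1, Nr3c2, Hsd11b1, Fkbp5, Tsc22d3, Sgk1, Zbtb16, Angptl4 or Pdk4. All 9 were found among the 18984 genes in the files, and all 9 passed the filter on low values that 13761 genes passed. Whole lungs came from immunocompetent C57BL/6 mice 24 hours after an intratracheal inoculation, in 3 groups of 3 libraries. The hyphae group had received hyphal fragments, the filamentous form of the fungus that invades tissue. The conidia group had received its spores, and the control group normal saline. All groups were of 1 strain and went through the same inoculation route, and no genetic change or drug is named for any of them. Age, sex, fungal dose and the number of animals behind a library are not given in the sources used here, so p-values measure the spread between these libraries, which may be technical.

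Glucocorticoids are adrenal steroids, mainly corticosterone in mice, that enter cells freely and bind the glucocorticoid receptor, which chaperones hold ready in the cytoplasm. The bound receptor moves to the nucleus, where it occupies DNA elements made of a pair of inverted arms and raises the transcription of genes that restrain inflammation, handle fuel and move sodium. In the lung the hormone is known for maturing the alveolar epithelium, clearing alveolar fluid and damping cytokine production, and its use as a drug is a known risk for invasive aspergillosis.

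Values are FPKM, which correct fragment numbers for transcript length and library size, so levels can be compared between genes. In each run of 3 values the libraries stand in the order of replicates 1, 2 and 3. Differences are on the log2(FPKM + 1) scale, which understates those of weakly expressed genes, and come from a limma model over all genes with Benjamini-Hochberg adjustment, called at an adjusted p under 0.05. Summed FPKM ranged from 492540 to 515755 in hyphae libraries, 505792 to 522168 in conidia libraries and 518913 to 561250 in control libraries. Depth, estimated from the steps between the lowest values, was about 17200000 to 18600000 fragments per library and overlapped between groups. The median log2 difference over all tested genes was −0.37 for hyphae against control, −0.07 for conidia against control and −0.29 for hyphae against conidia. Each test was repeated after rescaling the libraries by median-of-ratios factors, which bring that median to −0.01, −0.01 and 0. Markers of alveolar type 2 cells were high in every library, with Sftpc, a surfactant protein, between 10141 and 24610 FPKM. Summed FPKM of 10 neutrophil markers was 667 to 5941 after hyphae, 857 to 3090 after conidia and 132 to 152 in control, and was lowest among conidia libraries in replicate 2 (857).

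After hyphae the lung held more Fkbp5, Zbtb16, Sgk1, Hsd11b1, Angptl4 and Pdk4 than after saline, and less Nr3c2. Nr3c1 and Tsc22d3 were not called. That is 6 genes higher and 1 lower of 9, in a comparison in which 64.9% of all tested genes were called (14.9% higher and 50.0% lower). After rescaling 59.5% of all tested genes were called (29.5% higher and 30.0% lower), and 7 of the 9 genes were higher and 1 lower. The median log2 difference of the 9 genes was 1.04, against −0.37 for all tested genes (1.43 and −0.01 rescaled).

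After conidia only Fkbp5 and Angptl4 were called higher than in control, and no gene of the 9 was called lower in limma, where 1 was lower at an unadjusted p under 0.05 and 5 were higher. Over all genes 0.690% were called (0.596% higher and 0.0945% lower). After rescaling Angptl4 alone was called, against 0.342% of all genes (0.298% higher and 0.0436% lower). Neither call held without control replicate 1, 2 or 3, conidia replicate 1 or 3, or hyphae replicate 2, each of which left 0 of the 9 genes called (3 to 5 higher and 1 to 2 lower at an unadjusted p under 0.05). Without conidia replicate 2 there were 4 calls, with Fkbp5, Angptl4 and Sgk1 higher and Nr3c2 lower.

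Compared directly, hyphae exceeded conidia in Sgk1 and Zbtb16 and fell short of them in Angptl4, while 55.2% of all tested genes were called (12.7% higher and 42.5% lower). After rescaling Nr3c1 and Hsd11b1 were also called higher, and 51.0% of all genes were called (25.8% higher and 25.2% lower). The comparisons of hyphae and of conidia with saline share the 3 control libraries, so they are given side by side.

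**Figure D1:**
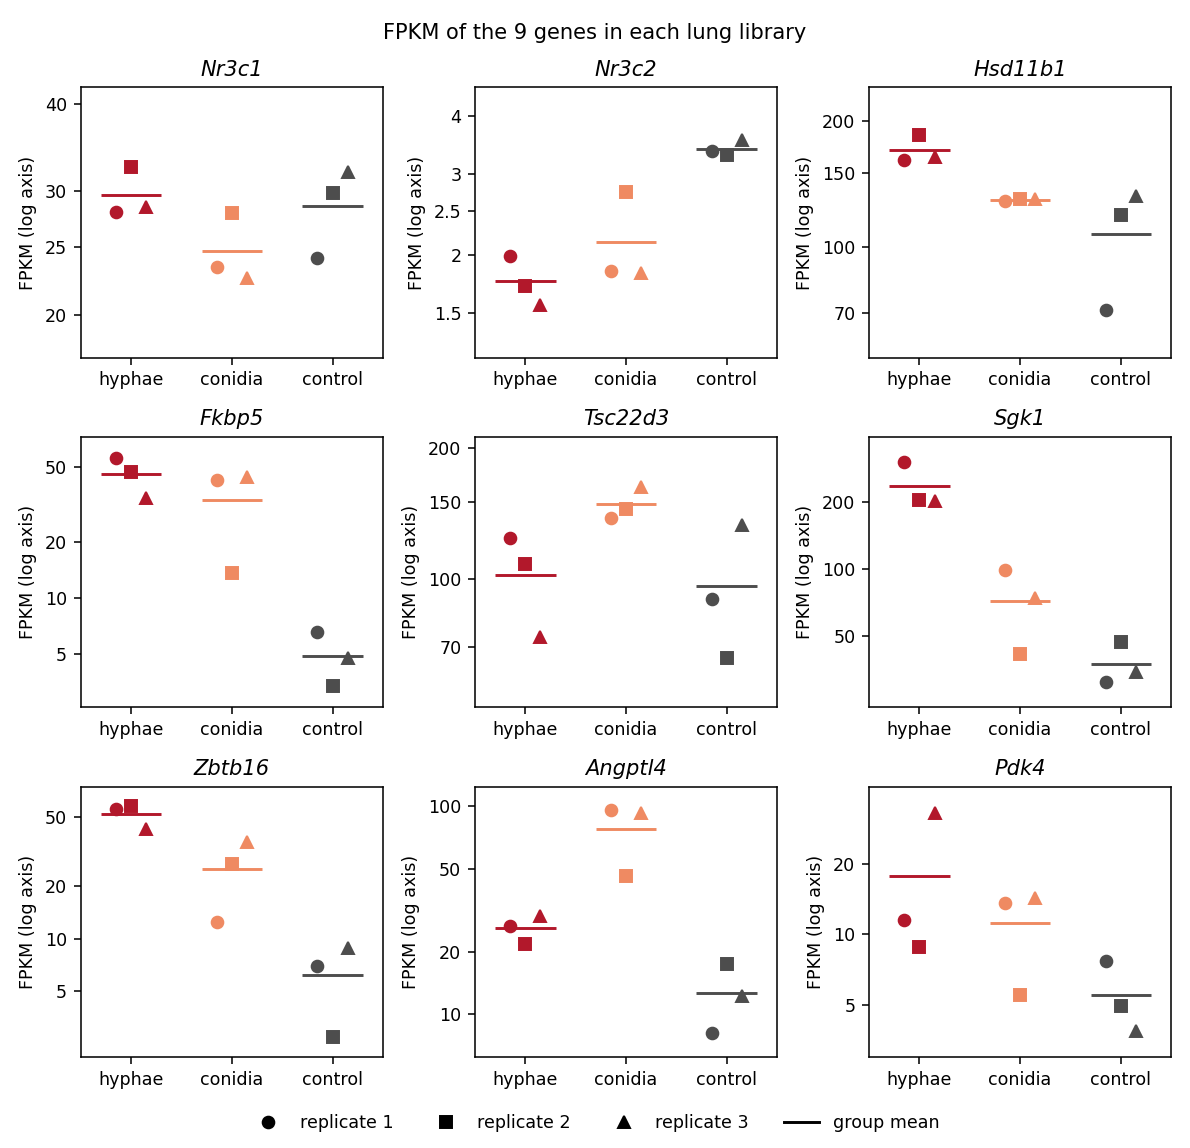
FPKM of each gene (log axis) in the 9 libraries, with hyphae, conidia and control from left to right, a point per library and a line at the group mean. Hyphae libraries stand above all controls in Fkbp5, Zbtb16, Sgk1, Hsd11b1, Angptl4 and Pdk4 and below them in Nr3c2, while Angptl4 and Tsc22d3 stand highest in the conidia libraries.

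**Figure D2:**
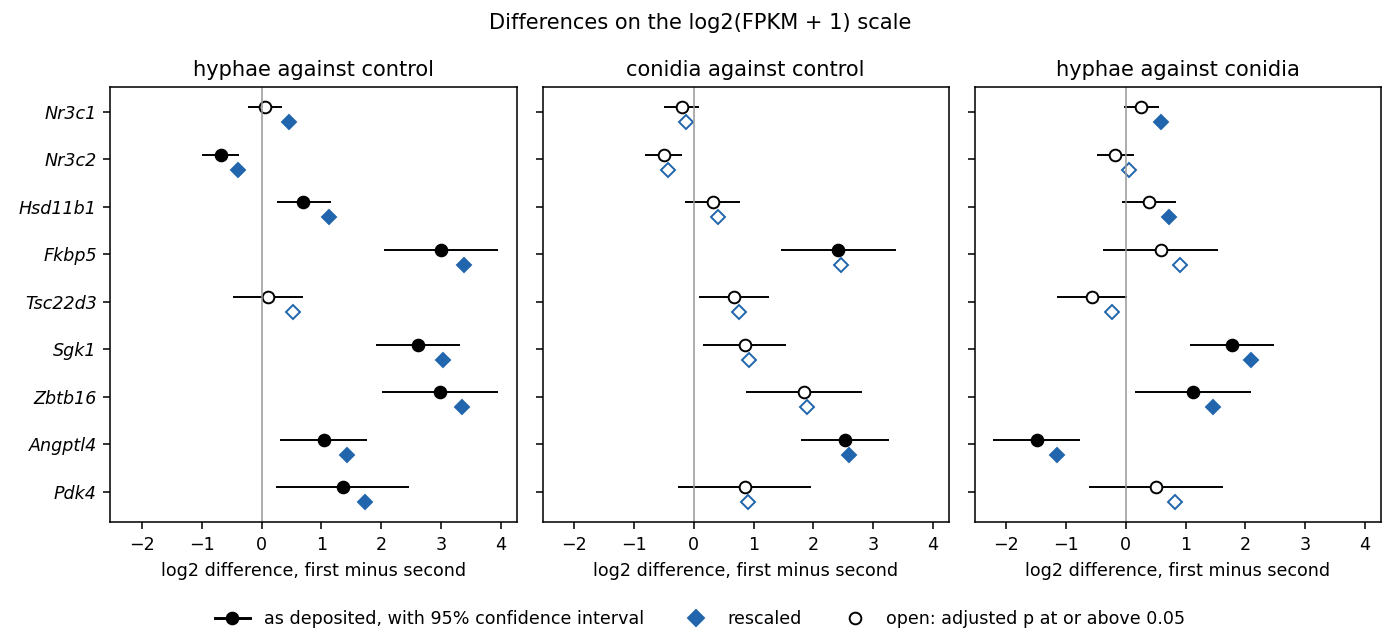
Log2 differences of the 9 genes in the 3 comparisons, as deposited (circles, with the 95% confidence interval) and after rescaling (diamonds), with filled symbols for adjusted p under 0.05. Sgk1 and Zbtb16 lie to the right of 0 and Angptl4 to the left when hyphae are set against conidia.

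The hormone supply was represented by Hsd11b1 (Entrez gene 15483), the 11-beta-hydroxysteroid dehydrogenase that regenerates active corticosterone from its inert 11-keto form inside cells. It measured 161, 185 and 164 FPKM in hyphae libraries, 129, 130.0 and 130.3 in conidia libraries and 71.1, 119 and 132 in control libraries. All hyphae libraries lay above all controls, the conidia libraries lay close together (SD 0.591 FPKM) and inside the control range, and control replicate 1 was the lowest of the 9. Hsd11b1 rose in hyphae against control by 0.70 (SE 0.20, adjusted p = 0.0131; 1.12 rescaled), to a mean of 170 ± 12.7 FPKM against 108 ± 32.2 (SD, n = 3 each). Quantile normalization ended that call (0.49, adjusted p = 0.0981). In conidia against control the difference was 0.32 (95% confidence interval −0.14 to 0.77, adjusted p = 0.376). Whether more cells or more RNA per cell lies behind any difference here cannot be told apart in whole lung.

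H6pd, which makes the NADPH that Hsd11b1 needs inside the endoplasmic reticulum, measured 81.6, 81.1 and 71.6 FPKM after hyphae, 83.5, 55.1 and 63.8 after conidia and 35.7, 43.2 and 46.7 in control. Both exposed groups lay wholly above the controls. H6pd rose in hyphae by 0.89 (SE 0.16, adjusted p = 0.00122), and its difference of 0.66 in conidia did not pass (adjusted p = 0.0865). Hsd11b2, which runs the opposite reaction and inactivates the hormone, was scarce at 1.66, 1.74 and 1.09 FPKM after hyphae and 1.2, 0.84 and 1.14 in control. After conidia it stood at 8.42, 1.62 and 9.12 FPKM, so that replicates 1 and 3 were raised and replicate 2 was near the controls. The difference of 1.62 between conidia and control did not pass (adjusted p = 0.114), whereas hyphae were lower than conidia by −1.35 (adjusted p = 0.0308; −1.13 and 0.0706 rescaled), with overlapping libraries.

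Of 12 listed genes for the synthesis, interconversion, carriage and export of glucocorticoids 11 were in the files and 6 passed the filter. Of these 6, H6pd rose in hyphae against control, Star and Srd5a1 fell, and 3 were not called. Among all tested genes 14.9% rose and 50.0% fell. Of the 6 a single fall was left without control replicate 1 or hyphae replicate 2 or 3, and 2 rises were called without conidia replicate 2. Star, which carries cholesterol into mitochondria for steroid synthesis, stood at 1.15, 0.97 and 0.99 FPKM after hyphae, against 3.48, 2.27 and 2.27 in control, a fall of 0.84 (adjusted p = 0.000957; −0.58 rescaled). Srd5a1, a steroid 5-alpha-reductase, fell by 0.50 and lost its call on rescaling (−0.34). None of the 6 was called for conidia in limma, where 3 were higher and 0 lower at an unadjusted p under 0.05, except without conidia replicate 2, where 3 rose.

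Nr3c1 (14815), the glucocorticoid receptor itself, measured 28.0, 32.5 and 28.6 FPKM in hyphae libraries, 23.4, 27.9 and 22.6 in conidia libraries and 24.1, 29.8 and 31.9 in control libraries. Hyphae and conidia libraries each overlapped the controls. The log2 difference was 0.06 for hyphae against control (95% confidence interval −0.23 to 0.34, adjusted p = 0.711) and −0.20 for conidia against control (−0.49 to 0.08, adjusted p = 0.37). Rescaling turned the value for hyphae into a call, at 0.46 (adjusted p = 0.0163), since 0 on that scale is the median of all genes. Hyphae libraries lay just above all conidia libraries, with 28.0 the lowest hyphae value and 27.9 the highest conidia value, and the difference of 0.26 missed the threshold (adjusted p = 0.11; 0.59 and 0.00653 rescaled).

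Nr3c2 (110784), the mineralocorticoid receptor, binds corticosterone as well as aldosterone and was the scarcest of the 9 genes in every group. It measured 1.99, 1.72 and 1.56 FPKM after hyphae, 1.85, 2.74 and 1.83 after conidia and 3.36, 3.30 and 3.56 in control. No exposed library reached the lowest control, and conidia replicate 2 was the nearest to it. Nr3c2 fell in hyphae by 0.68 (SE 0.14, adjusted p = 0.00223; −0.39 and 0.0178 rescaled), but quantile normalization ended the call (−0.07, adjusted p = 0.612). The difference in conidia, −0.50, did not pass (adjusted p = 0.107) except without conidia replicate 2 (−0.63, adjusted p = 0.0167).

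The ratio of Nr3c1 to Nr3c2 within a library, which a scaling factor per library cannot alter, was examined after the values had been seen. It was 14.1, 18.9 and 18.3 after hyphae, 12.7, 10.2 and 12.4 after conidia and 7.18, 9.04 and 8.97 in control. The 3 groups did not overlap. Over the same libraries the summed FPKM of 8 ciliated cell markers was 82.0 to 232 after hyphae, 207 to 351 after conidia and 320 to 547 in control, and that of 7 club cell markers was 32338 to 41230, 47270 to 64317 and 68937 to 125850. The part of these cells in the ratio was not tested.

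**Figure D3:**
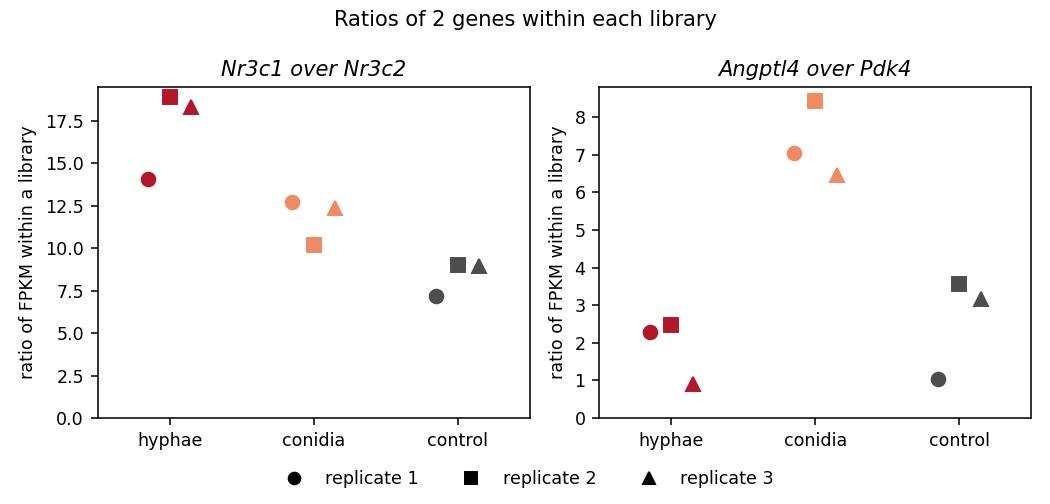
FPKM ratios within each library, Nr3c1 over Nr3c2 on the left and Angptl4 over Pdk4 on the right, for hyphae, conidia and control. The receptor ratio is 14.1 to 18.9 after hyphae, 10.2 to 12.7 after conidia and 7.18 to 9.04 in control, while the ratio of the metabolic genes is 6.47 to 8.42 after conidia and at most 3.56 elsewhere.

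The receptor needs a chaperone complex to bind hormone and coregulators to act on genes. Of 18 listed genes for these partners all were tested, and in hyphae 1 rose, 6 fell and 11 were not called. After rescaling 9 rose and 3 fell, so that the counts depended on the scaling. Over all tested genes 14.9% rose and 50.0% fell (29.5% and 30.0% rescaled). Fkbp4, the FK506-binding protein that favours hormone binding and competes with Fkbp5 for the receptor complex, fell under both scalings. It measured 39.1, 32.5 and 31.0 FPKM after hyphae, against 74.2, 69.7 and 72.7 in control, a fall of 1.06 (SE 0.15, adjusted p = 0.000338; −0.66 rescaled). Stip1, the cochaperone that hands clients between heat shock proteins, fell by 0.77 (−0.36 rescaled). Nrip1, a corepressor of nuclear receptors, measured 9.88, 10.4 and 11.0 FPKM after hyphae and 4.33, 4.40 and 5.30 in control, a rise of 1.01 (adjusted p = 7.8e-05; 1.38 rescaled). No partner was called for conidia in limma, where 0 were higher and 3 lower at an unadjusted p under 0.05, except 1 lower without conidia replicate 2.

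Fkbp5 (14229) encodes the cochaperone FKBP51, which lowers the receptor's affinity for hormone and is induced by it, closing a feedback loop. It measured 56.0, 47.5 and 34.1 FPKM in hyphae libraries, 42.8, 13.6 and 44.5 in conidia libraries and 6.55, 3.38 and 4.77 in control libraries. Every exposed library lay above every control, and conidia replicate 2 lay between the controls and the rest. The rise was 3.0 in hyphae (SE 0.42, adjusted p = 0.000393; 3.38 rescaled), a mean of 45.9 ± 11.0 FPKM against 4.90 ± 1.59. It was 2.42 in conidia (SE 0.42, adjusted p = 0.047), a mean of 33.6 ± 17.4 FPKM. The call for conidia was lost under 11 of 18 alternatives (adjusted p 0.00119 to 0.224 over all 18), rescaling among them (2.47, adjusted p = 0.0624). Hyphae and conidia libraries overlapped, with a difference of 0.58 (95% confidence interval −0.38 to 1.54, adjusted p = 0.27).

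Tsc22d3 (14605) encodes the glucocorticoid-induced leucine zipper, which binds and restrains NF-kB and AP-1. It measured 124, 109 and 73.9 FPKM after hyphae, 139, 145 and 163 after conidia and 90.2, 66.3 and 133 in control. As deposited, conidia libraries lay above all controls and above all hyphae libraries, while hyphae and control libraries covered nearly the same range. After rescaling conidia (138, 128 and 151) and hyphae (137, 133 and 90.5) overlapped. The difference of hyphae from conidia, −0.56, missed the threshold (adjusted p = 0.0932; −0.23 and 0.474 rescaled). Neither difference from control passed. It was 0.11 for hyphae (95% confidence interval −0.48 to 0.70, adjusted p = 0.729; 0.52 and 0.106 rescaled). For conidia it was 0.67 (0.08 to 1.26, adjusted p = 0.191; 0.75 and 0.16 rescaled). The sign for hyphae turned without control replicate 2 (−0.13) or hyphae replicate 1 (−0.05) and under quantile normalization (−0.03). Tsc22d3 is also abundant in resting lymphocytes. In hyphae 6 of 7 B cell markers fell (3 rescaled) and 6 of 7 tested T cell markers (5 rescaled). Over all tested genes 50.0% fell (30.0% rescaled). The summed FPKM of the B cell markers was 20.7 to 58.4 after hyphae, 27.5 to 129 after conidia and 95 to 171 in control. That of the T cell markers was 8.53 to 14.7, 13.8 to 36.4 and 24.7 to 34.3. The part of lymphocytes in the values of Tsc22d3 was not tested.

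The promoter of Tsc22d3's most upstream listed start site is shown because this gene is a standard reporter of receptor activity. The window of RefSeq (GRCm38.p6, chrX:140600473-140600772, minus strand) runs from 250 bases before the start site to 50 after it. Its single match to the 6-base arm of the glucocorticoid response element (AGAACA, or TGTTCT on the other strand) is in capitals and begins 185 bases before the start site. The windows of the gene's other listed start sites held no match.
Tsc22d3 promoter: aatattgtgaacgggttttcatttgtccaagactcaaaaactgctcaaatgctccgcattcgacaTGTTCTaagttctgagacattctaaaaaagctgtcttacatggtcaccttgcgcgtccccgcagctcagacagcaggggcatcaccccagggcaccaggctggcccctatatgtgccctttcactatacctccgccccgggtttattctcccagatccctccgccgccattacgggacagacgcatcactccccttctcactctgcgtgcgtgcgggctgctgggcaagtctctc

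Zbtb16 (235320) encodes PLZF, a zinc finger repressor that is required for natural killer T cells and is induced by corticosteroids in stromal cells. It measured 56.0, 57.5 and 42.5 FPKM after hyphae, 12.5, 26.9 and 36.1 after conidia and 7.03, 2.73 and 8.90 in control. The 3 groups did not overlap. Zbtb16 rose in hyphae by 2.98 (SE 0.43, adjusted p = 0.000424; 3.36 rescaled), a mean of 52.0 ± 8.26 FPKM against 6.22 ± 3.16. The difference in conidia was 1.85 (95% confidence interval 0.88 to 2.82) and did not pass (adjusted p = 0.081). The lowest conidia library for Zbtb16 was replicate 1, whereas replicate 2 was the lowest for Fkbp5. Hyphae exceeded conidia by 1.13 (adjusted p = 0.0499; 1.46 and 0.0174 rescaled), a call that 12 of 18 alternatives lost (adjusted p up to 0.151, without conidia replicate 1).

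Sgk1 (20393) encodes a serine/threonine kinase that keeps the epithelial sodium channel at the cell surface by inhibiting the ubiquitin ligase Nedd4l, and it answers to corticosteroids, insulin and osmotic stress. It measured 303, 205 and 202 FPKM after hyphae, 99.2, 41.4 and 74.6 after conidia and 31.1, 47.1 and 34.4 in control. Hyphae libraries lay above all others, whereas conidia replicate 2 lay inside the control range. Sgk1 rose in hyphae by 2.62 (SE 0.31, adjusted p = 0.000178; 3.03 rescaled), a mean of 237 ± 57.1 FPKM against 37.5 ± 8.44, and the call held under all 18 alternatives. The difference in conidia was 0.85 (95% confidence interval 0.15 to 1.55, adjusted p = 0.173), and was called without conidia replicate 2 (1.2, adjusted p = 0.0199). Hyphae exceeded conidia by 1.77 (SE 0.31, adjusted p = 0.00159), also under all 18 alternatives.

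The promoter windows of RefSeq (GRCm38.p6) held 13 windows for 6 of the 9 genes. Nr3c1, Zbtb16 and Angptl4 had none. The full response element, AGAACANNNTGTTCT without mismatch, was in 3 of 32851 windows of 300 bases (0.00913%), and 1 of the 3 belonged to Sgk1. It was in the window of Sgk1's next-to-last start site (chr10:21993640-21993939, plus strand), which is shown for that reason. The palindrome began 189 bases before that start site, at position 21993701, and 965 bases before the last of the 6 start sites, at 21994666. Capitals mark the palindrome and a further single arm 242 bases before the start site.
Sgk1 promoter: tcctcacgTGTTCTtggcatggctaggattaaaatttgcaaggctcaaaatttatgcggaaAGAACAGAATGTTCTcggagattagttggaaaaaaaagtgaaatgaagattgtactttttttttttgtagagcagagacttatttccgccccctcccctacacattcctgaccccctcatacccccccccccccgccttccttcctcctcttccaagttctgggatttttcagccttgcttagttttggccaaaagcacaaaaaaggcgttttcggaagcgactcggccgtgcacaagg
A single arm was in 4 of the 13 windows and in 19.0% of all windows. These 4 were some but not all of the windows of Sgk1 and Tsc22d3. Allowing 1 mismatch, 0.164% of all windows held the palindrome and no further window of the 9 genes did. No match was found in the windows of Fkbp5, Hsd11b1, Nr3c2 or Pdk4, which says nothing of DNA outside them.

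Among 10 genes for epithelial sodium transport, on which Sgk1 and corticosteroids act, 3 rose and 3 fell in hyphae (6 and 1 rescaled). Of all tested genes 14.9% rose and 50.0% fell (29.5% and 30.0% rescaled). Scnn1a, the alpha subunit of the sodium channel, measured 373, 322 and 277 FPKM after hyphae, 302, 203 and 294 after conidia and 148, 165 and 203 in control. It rose in hyphae by 0.91 (SE 0.19, adjusted p = 0.00262; 1.33 rescaled), and the difference in conidia, 0.62, did not pass (adjusted p = 0.129). The beta subunit Scnn1b went the other way as deposited, with 63.2, 41.1 and 31.5 FPKM after hyphae and 73.6, 73.5 and 65.4 in control, a fall of 0.69 that was not called after rescaling (−0.28, adjusted p = 0.231). Nedd4, a relative of Nedd4l, fell by 0.94 (−0.53 rescaled). Nedd4l itself stood higher, at 22.1, 21.0 and 20.8 FPKM after hyphae against 13.4, 14.4 and 14.5 in control. None of the 10 was called for conidia in limma, where 3 were higher and 0 lower at an unadjusted p under 0.05, except 1 higher without conidia replicate 2.

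Angptl4 and Pdk4 are metabolic targets that also answer to fatty acid sensing PPAR receptors and, for Angptl4, to hypoxia. Angptl4 (57875), a secreted inhibitor of lipoprotein lipase, measured 26.6, 21.8 and 29.6 FPKM after hyphae, 95.8, 46.4 and 92.6 after conidia and 8.09, 17.5 and 12.3 in control. The 3 groups did not overlap, and conidia stood highest. It rose in conidia by 2.53 (SE 0.32, adjusted p = 0.0244; 2.59 and 0.0464 rescaled), a mean of 78.3 ± 27.6 FPKM against 12.6 ± 4.73. In hyphae it rose by 1.04 (SE 0.32, adjusted p = 0.0189), to a mean of 26.0 ± 3.90 FPKM, a call lost without control replicate 1 (0.77, adjusted p = 0.0679) or hyphae replicate 3 (0.94, adjusted p = 0.0566). Hyphae were lower than conidia by −1.49 (SE 0.32, adjusted p = 0.0043; −1.16 rescaled), under all 18 alternatives. Angptl4 was thus the single gene of the 9 with a call below conidia, where Sgk1 and Zbtb16 had calls above.

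Pdk4 (27273), the kinase that shuts off pyruvate dehydrogenase and spares glucose, measured 11.6, 8.83 and 33.0 FPKM after hyphae, 13.6, 5.51 and 14.3 after conidia and 7.68, 4.92 and 3.87 in control. Hyphae replicate 3 stood far above the others. Pdk4 rose in hyphae by 1.36 (SE 0.49, adjusted p = 0.0366; 1.73 rescaled), but without hyphae replicate 3 the difference was 0.82 and not called (adjusted p = 0.104), nor was it without control replicate 2 or 3 (1.31 and 1.17). The conidia difference of 0.85 did not pass (95% confidence interval −0.27 to 1.96, adjusted p = 0.34). Hyphae replicate 3 also held the most heart and fat RNA of its group. Summed FPKM of 7 cardiac markers was 248, 116 and 2326 after hyphae and 285, 355 and 443 after conidia. In control it was 1588, 467 and 543. Over 8 adipose markers it was 62.6, 33.7 and 841 after hyphae, 74.1, 184 and 562 after conidia and 1382, 64.5 and 204 in control. No marker of these lists was at 0 except Lep in hyphae replicate 2. Control replicate 1, with a cardiac sum of 1588 and an adipose sum of 1382, had 7.68 FPKM of Pdk4, the highest control value. Conidia replicate 1 had the lowest cardiac and adipose sums of its group, but 13.6 FPKM of Pdk4 against 5.51 in conidia replicate 2. Summed FPKM of the 10 neutrophil markers was 667, 1902 and 5941 after hyphae, so it too was highest in replicate 3. It was 3090, 857 and 2209 after conidia and 132 to 152 in control. The part of heart, fat and neutrophils in Pdk4 was not tested.

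The ratio of Angptl4 to Pdk4 within a library, also examined after the values had been seen, was 2.30, 2.47 and 0.897 after hyphae, 7.04, 8.42 and 6.47 after conidia and 1.05, 3.56 and 3.17 in control. Every conidia library lay above all others, replicate 2 included. Of 17 fatty acid genes known as PPAR targets 1 rose and 10 fell in hyphae (3 and 3 rescaled), with a median of −0.47. Over all tested genes 14.9% rose, 50.0% fell and the median was −0.37. The count of falls among the 17 was 5 without hyphae replicate 2 and 6 without control replicate 1 or hyphae replicate 3. Acadm, a fatty acid dehydrogenase, fell by 0.99 and was not called after rescaling (−0.59). Ucp3, a mitochondrial carrier, fell by 0.96 (−0.78 rescaled). None was called for conidia in limma, where 4 were higher and 1 lower at an unadjusted p under 0.05, except 3 higher without conidia replicate 2 and 1 without hyphae replicate 1. Of 13 hypoxia-inducible genes 4 rose and 3 fell in hyphae (6 and 1 rescaled). Shares over all tested genes were 14.9% and 50.0% (29.5% and 30.0% rescaled). The median of the 13 was 0.18, against −0.37 for all tested genes (0.59 and −0.01 rescaled). The list's 3 largest called changes were rises, of Adm, the vasodilator adrenomedullin (5.39), Hk2, a hexokinase (2.41), and Slc2a1, a glucose transporter (1.04). None of the 13 was called for conidia, where 2 were higher and 2 lower at an unadjusted p under 0.05 in limma, except 1 higher without conidia replicate 2.

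Of 16 listed relatives of the 9 genes 12 were tested, and in hyphae 2 rose and 6 fell (4 and 3 rescaled). Over all tested genes 14.9% rose and 50.0% fell (29.5% and 30.0% rescaled). The falls were 3 without control replicate 1 or 3 or hyphae replicate 2, and the rises 1 to 2 without single libraries. Sgk3, a kinase of Sgk1's family, fell to 1.43, 1.70 and 1.5 FPKM after hyphae, against 4.51, 5.24 and 4.75 in control, by 1.2 (SE 0.13, adjusted p = 0.000114; −0.90 rescaled). Tsc22d2, of Tsc22d3's family, rose by 1.0 (10.4, 12.7 and 10.3 FPKM against 5.17, 5.11 and 4.87; 1.37 rescaled). None was called for conidia in limma, where 1 was higher and 4 lower at an unadjusted p under 0.05, except without conidia replicate 2, where 1 rose and 3 fell.

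Beyond the 9 genes, 30 others widely known to be induced by glucocorticoids were measured, a list chosen with earlier results of these data known. In hyphae 22 rose, 1 fell and 7 were not called, with a median of 1.96 against −0.37 for all tested genes. After rescaling 24 rose and 1 fell. Of all tested genes 14.9% rose and 50.0% fell in hyphae (29.5% and 30.0% rescaled). In conidia 4 of the 30 rose and none fell (1 rose rescaled), where 0.596% of all tested genes rose (0.298% rescaled). The median of the 30 was 0.58 against −0.07 for all, and 16 of them were higher and 0 lower at an unadjusted p under 0.05 in limma. The count of rises for conidia was 12 without conidia replicate 2, 7 without hyphae replicate 1, and 0 without any single control library, conidia replicate 1 or 3, or hyphae replicate 2 (13 to 18 at an unadjusted p under 0.05 in limma). That for hyphae ran from 21 to 23 without single libraries, and 2 fell without control replicate 3 or hyphae replicate 1. Per1, a clock gene with a receptor-driven promoter, measured 247, 273 and 237 FPKM after hyphae, 58.8, 41.4 and 50.9 after conidia and 42.8, 15.6 and 52.2 in control. It rose in hyphae by 2.91 (SE 0.37, adjusted p = 0.000255), while conidia overlapped control (0.59, adjusted p = 0.378). Klf9, a transcription factor that relays the hormone signal, measured 163, 169 and 157 FPKM after hyphae, 56.5, 50.8 and 56.5 after conidia and 36.4, 32.2 and 48.8 in control. The rise in hyphae was 2.05 (SE 0.14, adjusted p = 2.43e-05), and the difference of 0.49 in conidia did not pass (adjusted p = 0.117).

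Dusp1, the phosphatase that switches off stress kinases, was at 288, 433 and 562 FPKM after hyphae, 273, 127 and 156 after conidia and 225, 163 and 121 in control, a rise of 1.32 in hyphae (adjusted p = 0.0088). The largest rises of the list in hyphae were those of Il1r2, the interleukin 1 decoy receptor (5.53), Mt2, a metallothionein (5.38), and Cdkn1a, the cell cycle inhibitor p21 (4.05). Many genes of this list are induced by other signals too, and 8 of the 10 neutrophil markers summed above rose in hyphae and 3 in conidia (8 and 0 rescaled). None of the 10 was at 0 in an exposed library. The part of those cells was not tested. In the same lungs 13 of 16 tested inflammatory genes that glucocorticoids are known to restrain rose in hyphae and 1 fell. In conidia 3 rose. Of all tested genes 14.9% rose in hyphae and 0.596% in conidia (29.5% and 0.298% rescaled). After rescaling 14 of the 16 rose and 0 fell in hyphae, and none was called in conidia. As deposited, 13 of the 16 were higher and 0 lower in conidia at an unadjusted p under 0.05 in limma. The conidia count was 8 without conidia replicate 2 or hyphae replicate 1, and 0 without any single control library, conidia replicate 1 or 3, or hyphae replicate 2 (10 to 13 at an unadjusted p under 0.05 in limma). Cxcl2, Cxcl1 and Ccl3, chemokines that draw leukocytes, had the largest rises in hyphae (7.97, 6.65 and 4.78).

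**Figure D4:**
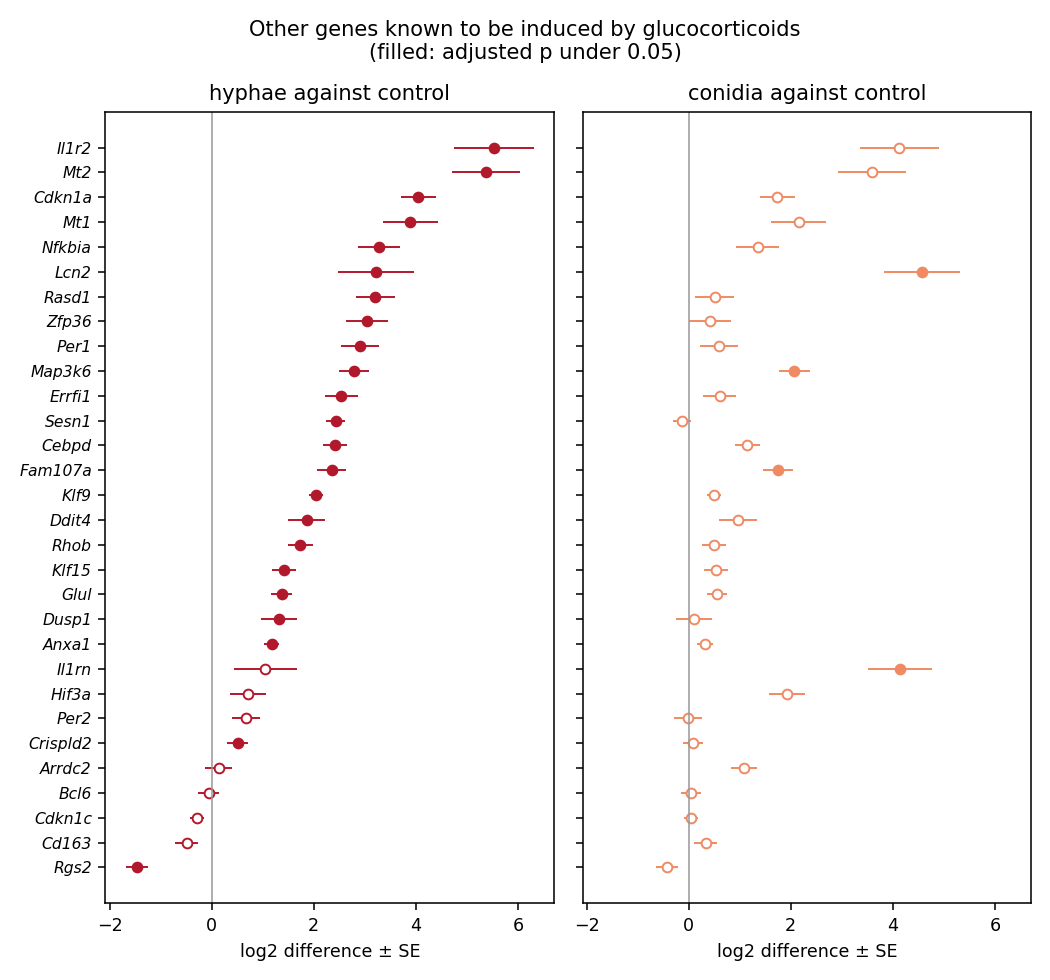
Log2 differences (± SE) of 30 other genes known to be induced by glucocorticoids, for hyphae against control on the left and conidia against control on the right, with filled points for adjusted p under 0.05. In hyphae 22 points are filled to the right of 0 and 1 (Rgs2) to the left, and in conidia 4 are filled (Lcn2, Il1rn, Map3k6 and Fam107a). The list was chosen with earlier results of these data known.

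The genes whose profiles over the 9 libraries came nearest to each of the 9 were found by the root mean square difference of log2 values, each profile centred on its own mean. Nearest to Fkbp5 was Map3k6, a stress kinase kinase that stands on the list of induced genes (0.29), followed by Gm40525 (0.41) and Sema7a (0.42). Map3k6 measured 50.0, 46.1 and 49.7 FPKM after hyphae, 36.4, 16.6 and 39.7 after conidia and 6.66, 4.55 and 7.60 in control, with its dip in conidia replicate 2 as in Fkbp5. It rose in both comparisons with control (2.79, adjusted p = 0.000113 in hyphae; 2.07, adjusted p = 0.0332 in conidia). Map3k6 was nearest to Zbtb16 as well (0.58), before Fam107a and Prss22 (0.62 each). Sgk1 was nearest to Plat (0.29), Il4ra (0.33) and Rin3 (0.34), Angptl4 to Lrg1 (0.37), Cd300lf (0.40) and Hif3a (0.46), and Pdk4 to Stfa1 (0.34), Gfpt2 (0.36) and Scrg1 (0.36). Hsd11b1 lay nearest to Ptprg and Pecam1 (0.08 each) and C7 (0.10), and Tsc22d3 to Fmo2 (0.17), Ace (0.20) and Man2a1 (0.21). For the weakly varying receptors the nearest were Phex (0.04), Arl5a and Stard13 (0.05 each) for Nr3c1 and Mpv17l (0.06), Ttc3 (0.07) and Rnf43 (0.08) for Nr3c2.

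The levels per length were ordered by group mean. After hyphae Sgk1 (237 FPKM), Hsd11b1 (170) and Tsc22d3 (102) led, each separated from the next by its range over libraries. Zbtb16 (52.0) and Fkbp5 (45.9) overlapped, as did Nr3c1 (29.7), Angptl4 (26.0) and Pdk4 (17.8) in turn, and Nr3c2 (1.76) was last. After conidia Tsc22d3 (149) led Hsd11b1 (130), followed by the overlapping Angptl4 (78.3), Sgk1 (71.8), Fkbp5 (33.6), Zbtb16 (25.1) and Nr3c1 (24.7), then Pdk4 (11.1) and Nr3c2 (2.14). In control lungs Hsd11b1 (108) and Tsc22d3 (96.5) overlapped at the top, Sgk1 (37.5) and Nr3c1 (28.6) overlapped below them, and Angptl4 (12.6), Zbtb16 (6.22), Pdk4 (5.49), Fkbp5 (4.90) and Nr3c2 (3.41) followed with overlapping neighbours.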

How the data were processed

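Poly(A) RNA of 9 lung samples was sequenced on a BGISEQ instrument, per the labels' protocols. The deposited values were FPKM per gene, per the file headers, computed by the authors with 1 file per library and steps of 0.01. Per the submitters' processing notes, HISAT, Bowtie2 and mm9 were used, in roles that are not stated. Counts were not analysed here, so depth is an estimate from low values of single-transcript genes, at 17200000 to 18600000 fragments with full transcript lengths and 20100000 to 21200000 with 100 bases subtracted. No interval for counting error was computed.

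Computations used R 4.3.3, limma 3.58.1 and jsonlite 2.0.0. Genes reaching 1 FPKM in 3 or more libraries were tested on log2(FPKM + 1) by limma-trend with robust moderation, all 9 libraries in 1 fit and a term per group. Tests were two-sided, with Benjamini-Hochberg adjustment over 13761 genes and a threshold of 0.05. With 3 libraries a group, no exact test could reach a p below 0.1. The members and lists were chosen with earlier results of these data known. Named genes are the 9 members, the 3 largest called changes per list in hyphae against control, the fixed genes Per1, Dusp1, Klf9, Hsd11b2, H6pd and Scnn1a, and the 3 nearest profiles per member. Sftpc is named as a check of the tissue, members of calls of 5 or fewer were named after their values were seen, and a gene that the rule names is not reported here. Promoter sequences are RefSeq's (GRCm38.p6), matched by symbol, and no coordinates of mm9 are used.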

Additional observations from a re-analysis of the deposited data

How the results depend on the processing

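Of 9 genes, the count called for conidia against control was 2 higher as reported and 1 under median-of-ratios scaling, no filter, a fit of the 2 groups alone or a replicate block. Without single libraries it was 0 to 3 higher and 0 to 1 lower. Over all genes 82 were higher and 13 lower, against 41 and 6 under median-of-ratios scaling and 50 and 7 with the replicate block. No filter gave 34 higher and quantile normalization 36 lower. Without single libraries the counts ran from 0 to 641 higher and 0 to 862 lower (891 to 1099 higher and 688 to 1504 lower at an unadjusted p under 0.05 where limma called 0). For hyphae against control 2045 genes were higher and 6886 lower, against 4058 and 4127 under median-of-ratios scaling and 3428 and 4186 under quantile normalization. The 1 member called lower there, Nr3c2, became 0 under quantile normalization, with 0 also at an unadjusted p under 0.05 in limma, and 0 with a mean of at least 5 FPKM, which left it out of the test. For hyphae against conidia the 2 members higher became 4 under median-of-ratios scaling and 1 under quantile normalization, pseudocount 0.1 or 0.5, no filter, a mean of at least 5 FPKM or the replicate block, and 1 to 2 without single libraries. The 1 lower became 2 in a fit of the 2 groups alone and 1 to 2 without single libraries. Over all genes 1752 were higher and 5847 lower, against 3545 and 3468 under median-of-ratios scaling and 3011 and 3217 under quantile normalization. The cause of these shifts was not tested.

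Differences that were not called changed sign. In hyphae against control, that of Nr3c1 was −0.06 to 0.14 without single libraries (−0.06 without control replicate 1 and −0.01 without hyphae replicate 2). That of Tsc22d3 was −0.13 to 0.37 without single libraries (−0.13 without control replicate 2 and −0.05 without hyphae replicate 1) and −0.03 under quantile normalization. In hyphae against conidia, Nr3c2 was at 0.05 under median-of-ratios scaling and 0.28 under quantile normalization, and Pdk4 at −0.03 to 0.87 without single libraries, the lowest without hyphae replicate 3. No called difference changed sign under these alternatives. Deviations of same-numbered libraries from their group means correlated at −0.31 to 0.42, and 7 of 18 best matches were to a library's own number. With 3 libraries a group these values cannot decide whether the numbers pair animals, which the labels do not say.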

Other observations

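Of the 30 other genes known to be induced by glucocorticoids, 16 were higher and 5 lower in hyphae than in conidia (21 and 4 rescaled), where 12.7% of all tested genes were higher and 42.5% lower. The 5 became 3 without conidia replicate 3, without hyphae replicate 3 or with a mean of at least 5 FPKM, and 2 under quantile normalization, and were named after their values had been seen. Il1rn, the interleukin 1 receptor antagonist, measured 2.47, 7.45 and 8.93 FPKM after hyphae and 149, 23.4 and 47.4 after conidia, a difference of −3.08 (SE 0.62, limma adjusted p = 0.00303; −2.78 rescaled). Hif3a, a hypoxia-inducible factor subunit that dampens that response, measured 2.31, 1.42 and 1.29 FPKM after hyphae and 6.72, 2.26 and 8.05 after conidia, a difference of −1.21 with overlapping libraries (adjusted p = 0.0168). The others were Rgs2, a regulator of G protein signalling (−1.03), Arrdc2 (−0.94, not called after rescaling at −0.63) and Cd163, the haemoglobin scavenger receptor of macrophages (−0.82).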
